A study of Mus musculus with 4 samples.

Results

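The C-type lectin receptors of macrophages were examined as a set of 10 genes, chosen by symbol from the 24625 genes with counts: Clec10a, Mgl2, Clec7a, Clec4d, Clec4e, Clec4n, Clec12a, Clec5a, Mrc1 and Mrc2. All 10 had a row in each count table, and 9 had enough counts to be tested among 12747 genes; Mrc2 did not. Peritoneal macrophages came from C57BL/6 mice (C57BL/6J in the series' design text) that ate standard chow, labelled the control diet, or a high-fat diet with 60% of its energy as fat. Feeding lasted 12 weeks in both groups, and all mice were injected intraperitoneally with 3% thioglycollate 4 days ahead of collection. Both diets were therefore sampled in elicited macrophages, which are recruited by the irritant. Each diet had 2 libraries of total RNA depleted of ribosomal RNA. Age and sex are not given, nor is it stated whether a library held 1 mouse or a pool, so p-values measure the spread between these libraries, which may be technical.

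C-type lectin receptors are membrane proteins that bind sugars, lipids or other ligands through a fold that in many members needs calcium. Some activate the cell through the kinase SYK and the adaptor CARD9, either by a tyrosine motif of their own or through the adaptor chains encoded by Fcer1g and Tyrobp. Others carry an inhibitory motif, and a further group takes up glycoproteins by endocytosis. In macrophages they are known for the recognition of fungi, mycobacteria and dying cells and for the clearance of glycoproteins.

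Gene totals were 39347347 to 45658551 counts per library. Macrophage transcripts were abundant: the 11 measured general macrophage markers, led by Lyz2, summed to 25428 to 26560 CPM with control diet and 19732 to 24136 CPM with high-fat diet. CPM, the usual count rate, divides a gene's reads by the TMM library size, which levels the libraries on the bulk of genes. At an adjusted p of 0.05, 78 of 12747 genes (0.612%) were called by edgeR's quasi-likelihood test, with 41 higher and 37 lower in high-fat libraries. The diets' libraries did not overlap for 51% of all genes tested, so separation alone is common in these data. Beside 50.8% of all genes below 0, 10 of 10 neutrophil markers kept for the test and 7 of 11 dendritic cell markers had log2 fold changes below 0. Above 0 lay 12 of 13 mesothelial cell and fibroblast markers and 10 of 11 B cell markers kept. Such counts by direction are no support, here or below, since a gene could have enough counts for the test through its high group. Summed B cell markers overlapped, at 132 and 122 CPM in control and 121 and 224 CPM in high-fat libraries. Fewer cells of a type and less RNA per cell cannot be told apart in such bulk libraries.

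The receptors spanned a wide range of levels. Per kb of exon, Clec4d averaged 717 CPM over the 4 libraries, Clec7a 428, Clec4e 309, Clec12a 154, Mrc1 54.1, Clec4n 26.7, Clec5a 24.6, Clec10a 16.5 and Mgl2 1.79. The ranges of Clec4d (540 to 911 CPM per kb) and Clec7a (311 to 569) overlapped, as did those of Clec7a and Clec4e (239 to 388), of Clec4n (12.3 to 35.9) and Clec5a (22.0 to 27.9), and of Clec5a and Clec10a (11.1 to 23.1). All other neighbours in this order had ranges apart. Mrc2 had 1, 0, 4 and 1 counts in control replicates 1 and 2 and high-fat replicates 1 and 2. A count of 4 has an exact Poisson interval of 1.09 to 10.2 and a count of 0 an upper bound of 3.69, so no difference in Mrc2 was detectable at this depth; such intervals cover counting error only.

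**Figure D1:**
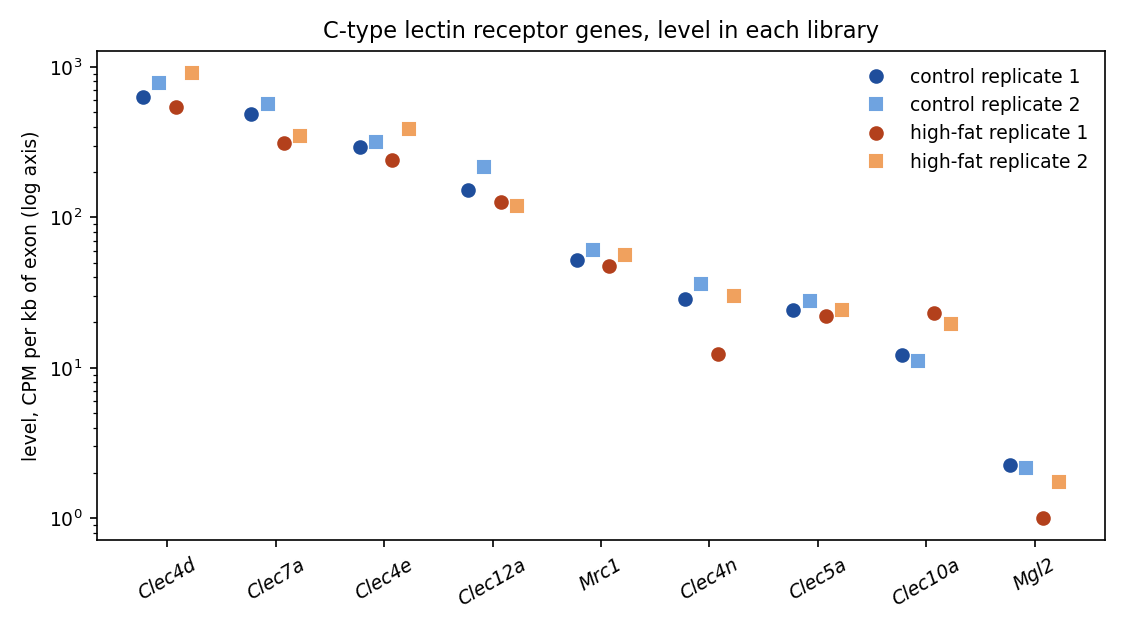
Level of each receptor gene in each library, as CPM per kb of exon on a log axis, in descending order of the mean, with 1 point per library. Clec4d, Clec7a and Clec4e lie at 239 CPM per kb or above in every library, Mgl2 at 2.26 or below, and Mrc2 is not drawn.

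Of the 9 receptors tested, 1 rose and none fell by the edgeR quasi-likelihood test at an adjusted p of 0.05, beside 0.322% higher and 0.29% lower over all genes. Clec10a was the gene that rose. At an unadjusted p under 0.05 there were 4 of the 9 (Clec10a, Clec7a, Clec12a and Mgl2), beside 17% of all genes, and DESeq2 called 3, beside 2.74%. The high-fat libraries lay below both control libraries for 4 receptors, Clec7a, Clec12a, Mgl2 and Clec5a, beside 24.9% of all genes, and above both for Clec10a alone, beside 26.1%. The median log2 fold change of the 9 was -0.18, against -0.005 over all genes.

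**Figure D2:**
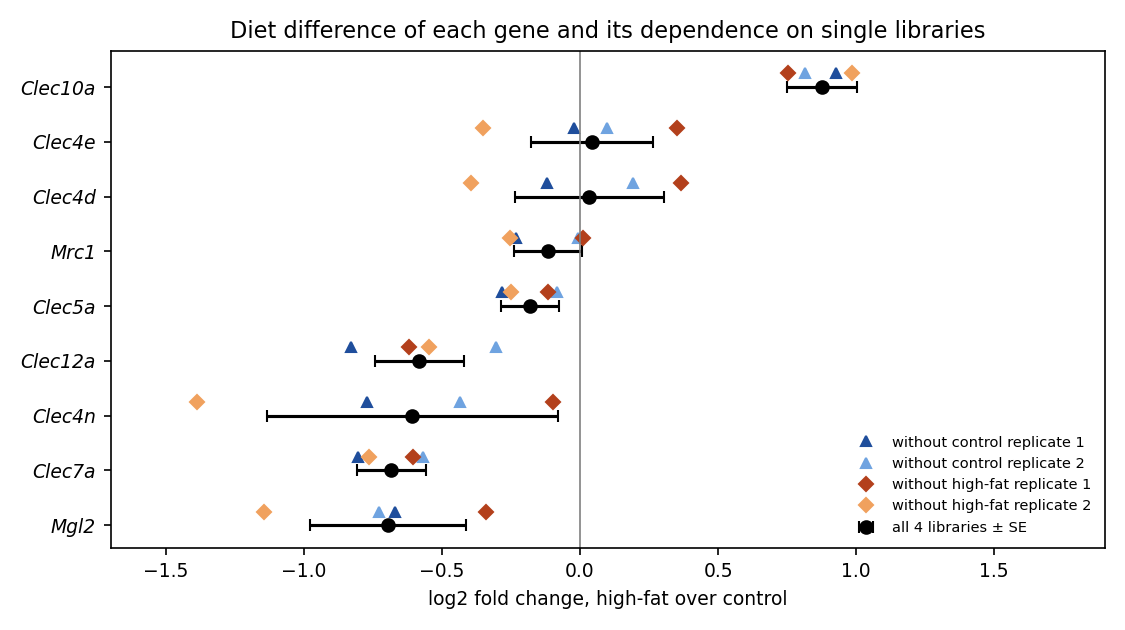
Log2 fold change, high-fat over control, of the 9 receptor genes tested (black, with its standard error) and the same value with 1 library left out (triangles, a control library; diamonds, a high-fat library). Clec10a lies above 0 and Clec7a, Clec12a, Clec5a, Mgl2 and Clec4n below 0 in every such fit, while Clec4d, Clec4e and Mrc1 change side.

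The galactose-binding endocytic receptors came first, since they held the gene that rose. Clec10a encodes the macrophage galactose-type lectin MGL1 (CD301a), and Mgl2 its close relative MGL2 (CD301b), which is also known from dermal dendritic cells; both are used as markers of alternatively activated macrophages. They are neighbours on chromosome 11, Mgl2 at 69943859 to 69951044 and Clec10a at 69980125 to 69984338 (mm9, plus strand, 10 exon blocks each). Whether reads of such close relatives can be separated bears on every value of the pair. Over 915 aligned coding bases they were 90.9% identical, by GENCODE M21 transcripts of GRCm38, and the longest identical run was 183 bases. The 90 coding bases that differ most, coding bases 790 to 879 of Clec10a and 838 to 927 of Mgl2, are shown with their 27 differences in capitals and the shared bases in lower case.
Clec10a: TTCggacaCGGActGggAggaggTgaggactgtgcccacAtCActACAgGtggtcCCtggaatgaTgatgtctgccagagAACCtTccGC
Mgl2: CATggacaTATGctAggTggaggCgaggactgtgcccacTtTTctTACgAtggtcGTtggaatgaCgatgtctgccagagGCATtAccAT
Of the stretches of 50 bases in the Clec10a transcript 16.7% occur in Mgl2 as well, and of those of 100 bases 6.51%. The corresponding shares of the Mgl2 transcript that occur in any other gene were 17.0% and 6.12%. Reads that lie within those stretches align to both genes, and the deposited tables list alignments at more than 1 place apart from the gene counts. The sources give no read length, so the pair's counts carry that uncertainty.

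Control replicates 1 and 2 held 732 and 648 Clec10a counts (18.2 and 16.7 CPM), and high-fat replicates 1 and 2 held 1607 and 1174 (34.6 and 29.4 CPM). Both high-fat libraries were above both control libraries. The level rose from 17.4 ± 1.06 to 32.0 ± 3.70 CPM (SD, n = 2 per diet), a fold of 1.84, or 0.88 ± 0.13 (SE) in log2, with an adjusted p of 0.029 by edgeR's quasi-likelihood test. The call was lost without control replicate 1 (adjusted p = 0.0767) and without control replicate 2 (0.0882), and by limma-voom (0.0511), at log2 fold changes of 0.93, 0.81 and 0.87. It held when high-fat replicate 1 (0.00205) or high-fat replicate 2 (4.62e-06) was dropped, with log2 fold changes of 0.75 and 0.99. Over all genes those fits called 6.37% and 3.81%, the fits lacking control replicate 1 or 2 called 0.114% and 0.136%, and limma-voom called 0.22%.

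For Mgl2 the control libraries held 141 and 130 counts (3.50 and 3.35 CPM), the high-fat ones 72 and 108 (1.55 and 2.70 CPM). The diets did not overlap here either, but in the opposite direction, and the exact Poisson interval of the higher high-fat count (88.6 to 130) overlapped that of the lower control count (109 to 154). The log2 fold change of -0.69 ± 0.28 did not pass (adjusted p = 0.265, edgeR quasi-likelihood test). It rested on high-fat replicate 1, since dropping that library gave -0.34, while dropping high-fat replicate 2 gave -1.14 (adjusted p = 0.015).

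The number of Clec10a counts for each Mgl2 count therefore separated the libraries by diet, which follows from the levels above and is no further support. It was 5.19 in control replicate 1 and 4.98 in control replicate 2, with exact binomial 95% intervals of 4.33 to 6.26 and 4.12 to 6.07. In high-fat replicate 1 it was 22.3 (17.6 to 28.7) and in high-fat replicate 2 it was 10.9 (8.92 to 13.4). The control libraries agreed within counting error, the high-fat libraries differed from each other beyond it, and both lay above the control range. These intervals leave out the spread between libraries. With 2 libraries per diet an exact permutation test cannot go below 0.333, so no p is given for the ratio. Counted together as 1 gene, Clec10a and Mgl2 differed by 0.71 in log2 for high-fat over control, with an adjusted p of 0.0428 by edgeR's quasi-likelihood test.

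**Figure D3:**
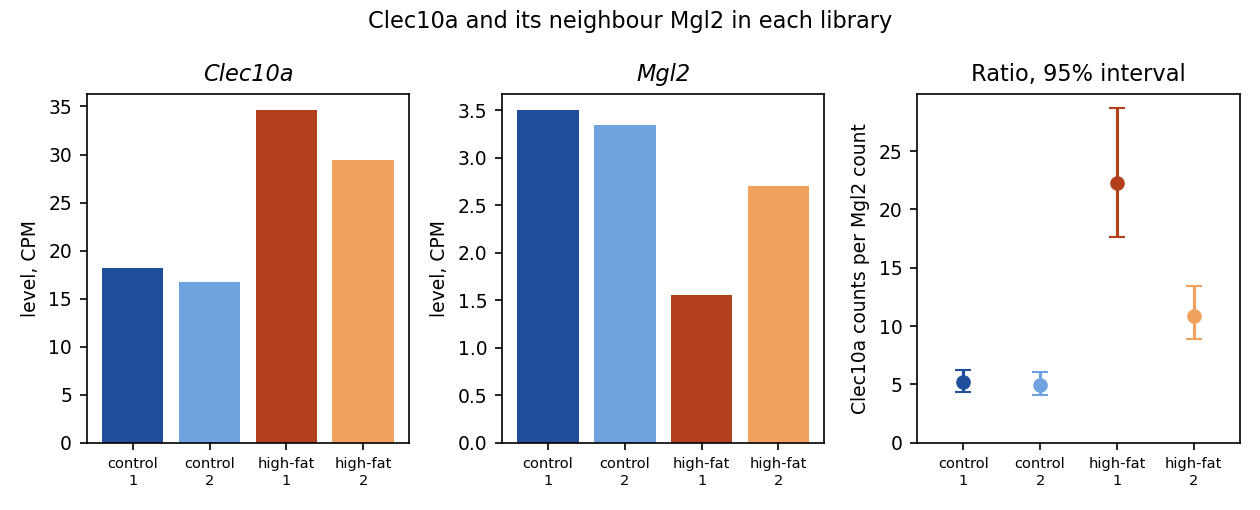
Level of Clec10a and of Mgl2 in each library (bars, CPM) and the number of Clec10a counts per Mgl2 count with its exact binomial 95% interval. Clec10a is higher and Mgl2 lower in both high-fat libraries, and the ratio goes from 5.19 and 4.98 to 22.3 and 10.9.

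Summed dendritic cell markers, like Mgl2, were lower in both high-fat libraries. The 13 dendritic cell markers summed to 427 and 416 CPM in control and 351 and 363 CPM in high-fat libraries, and none was at 0 in all libraries. Of the 11 kept, 7 lay below 0 (50.8% of all genes) and 4 above. The diets were apart for 6 lower (24.9% of all genes) and 1 higher (26.1%). The lectin gene Cd209a fell, beside 0.29% of all genes (4.27 and 3.55 against 0.625 and 0.926 CPM). Flt3, a cytokine receptor of dendritic cells and their precursors, had a log2 fold change of -1.69 (adjusted p = 0.0602). The means of Cd209a and Flt3 went from 3.91 and 2.43 CPM to 0.775 and 0.749 CPM, only a small part of the summed fall. The part of dendritic cells in the summed fall and in the Mgl2 values was not tested. The mesothelial cell and fibroblast markers, 16 genes, went from 463 and 454 to 656 and 586 CPM in sum. The matrix proteoglycan gene Lum rose there from 0.199 and 0.232 to 1.79 and 1.18 CPM (adjusted p = 0.031) and passed the count filter through the high-fat libraries, and Pdgfra had a log2 fold change of 2.81 (adjusted p = 0.068; its exons overlap a miRNA gene). Their part in the Clec10a values was not tested.

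Among 8550 genes averaging 5 CPM or more, Susd1, Matn2 and Plod2 had the profiles most like that of Clec10a over the 4 libraries. The measure was the distance between log2 CPM values centred on each gene's mean, which was 0.12, 0.133 and 0.194. Plod2, a collagen lysyl hydroxylase, rose by the same test (adjusted p = 0.0456), while the matrix protein gene Matn2 (0.81, adjusted p = 0.0757) and Susd1 (0.77, adjusted p = 0.094) did not pass. Exons of Matn2 and Plod2 overlap a gene on the opposite strand, and whether counting used strand is not stated. With 4 libraries in 2 groups such likeness is a description only.

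Clec7a and Clec12a encode an activating and an inhibitory receptor and lie in the natural killer gene region. Both genes had lower values in both high-fat libraries than in both controls, as 24.9% of all genes did, and neither passed the test. Clec7a encodes Dectin-1, the receptor for fungal beta-glucan, which signals to SYK through a tyrosine motif in its own tail. Clec12a encodes MICL, which carries an inhibitory motif and is known to bind uric acid crystals. Both lie in 1 run of 7 lectin genes on chromosome 6, Clec12a at 129300262 to 129315321 (plus strand, 6 exon blocks) and Clec7a at 129411609 to 129422795 (minus strand, 6 exon blocks; mm9).

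Clec7a stood at 1107 and 1296 CPM with control diet, and with high-fat diet at 708 and 788 CPM. Every high-fat library was below every control library, and the gap between the diets was larger than that within either. The log2 fold change was -0.68 ± 0.12, from 1201 ± 133 to 748 ± 56.8 CPM, and missed the threshold narrowly (adjusted p = 0.0513, edgeR quasi-likelihood test). It passed by DESeq2 (adjusted p = 1.63e-05), with scaling by library totals (0.0342), with a replicate block (0.0366) and with no filter (0.000751). Removal of the trend with GC content and length gave 0.0131. The gene did not pass by limma-voom (0.0717), or by edgeR with RLE in place of TMM (0.0611), a CPM filter (0.0661) or no robust fitting (0.0633). Over all genes the scaling by totals called 0.73%, the block 0.886%, the GC and length fit 0.816% and a fit with no filter 3%. Dropping control replicate 1 gave an adjusted p of 0.141 and dropping control replicate 2 one of 0.144, and the log2 fold change ran from -0.80 to -0.57 over the 4 fits that left out 1 library. Of the counts per kb of the 10 receptors, Clec7a made up 28.9% and 28.1% in control and 23.5% and 18.2% in high-fat libraries.

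Clec12a stood at 337 and 481 CPM in control and at 281 and 266 CPM in high-fat libraries. The high-fat libraries were close to each other and below both controls, while the controls differed by 1.43 times. The log2 fold change of -0.58 ± 0.16 did not pass (adjusted p = 0.151, edgeR quasi-likelihood test). It was -0.83 without control replicate 1 and -0.31 without control replicate 2, and the gene passed by DESeq2 (adjusted p = 0.0101) and without either high-fat library (0.0026 and 0.0166).

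Most other genes of that run had low levels. Clec9a, a receptor of dendritic cells for dead cells, had 0.696 and 1.13 CPM in control and 0.323 and 0.100 CPM in high-fat libraries (log2 fold change -2.06, adjusted p = 0.118). Clec1a went the same way (-1.25, adjusted p = 0.222), Clec1b had 0.07, and Clec12b had at most 0.0497 CPM in a library. Olr1, the receptor for oxidised low-density lipoprotein at the far end of the run, had 36.8 and 31.6 against 29.6 and 45.1 CPM, so its diets overlapped. Of the 6 genes of the run that were tested, 4 had a log2 fold change below 0 (50.8% of all genes), and in those the high-fat libraries lay under the controls (24.9% of all genes). Those 4 are Clec7a, Clec12a, Clec9a and Clec1a. The count is no support, since Clec9a and Clec1a could pass the count filter through the control libraries.

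Summed levels of several marker lists were also lower in both high-fat libraries. Besides the dendritic cell list above, this held for eosinophil markers (10.5 and 20.0 CPM in control, 5.56 and 8.38 CPM in high-fat libraries). The 14 measured neutrophil markers summed to 114 and 117 CPM in control and 81.7 and 68.2 CPM in high-fat libraries, with Elane at 0 in all. Mmp9, a gelatinase (log2 fold change -1.48, adjusted p = 0.0161), and Csf3r, a growth factor receptor (-0.69, adjusted p = 0.0476), fell among the 10 kept. Markers of monocytes and small peritoneal macrophages summed to 827 and 780 against 524 and 621 CPM, but 6 of 11 lay below 0, near the 50.8% of all genes, and 5 above. There Fn1, encoding fibronectin, fell (-0.81, adjusted p = 0.029), and the coagulation factor gene F10 had -0.55 (adjusted p = 0.0602). The means of Fn1 and F10 went from 397 and 142 CPM to 226 and 96.8 CPM, which was most of the summed fall. Of 11 general macrophage markers 10 lay below 0, with a median of -0.27; Mertk, a receptor for dying cells, fell (-0.69, adjusted p = 0.0449), and Csf1r, the receptor for macrophage growth factor, had -0.52 (adjusted p = 0.0704). The part of these cell types in the lectin values was not tested.

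Clec4d, Clec4e and Clec4n form the Dectin-2 group, and each differed by more than 1.5 times between the high-fat libraries. Clec4e encodes Mincle, a receptor for mycobacterial glycolipids and for a nuclear protein released by dying cells. Clec4d encodes MCL, which pairs with Mincle, and Clec4n encodes Dectin-2, a receptor for fungal mannans; all rely on the adaptor chain of Fcer1g. They are the last 3 genes of a run of 9 lectin genes on chromosome 6 (mm9, 122871866 to 123239889), with Clec4n at 123179861 to 123197042 and Clec4d at 123212125 to 123225286 on the plus strand and Clec4e at 123231807 to 123239889 on the minus strand.

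Clec4d stood at 846 and 1048 CPM with control diet, and with high-fat diet at 722 and 1217 CPM. Clec4e had 737 and 798 CPM in control and 602 and 978 CPM in high-fat libraries. For both genes high-fat replicate 1 was the lowest and high-fat replicate 2 the highest of the 4 libraries. Clec4n had 35.5 and 44.7 CPM in control and 15.4 and 37.4 CPM in high-fat libraries; here too high-fat replicate 1 was the lowest, but control replicate 2 was the highest.

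High-fat replicate 2 exceeded high-fat replicate 1 by 1.69 times for Clec4d, 1.62 times for Clec4e and 2.44 times for Clec4n. A ratio of at least 1.5 was found for 6.02% of all genes tested, and among the 9 receptors for these 3 and Mgl2 (1.74). The remaining 5 had ratios from 0.849 to 1.20, and none reached the opposite ratio of 1/1.5, found for 5.46% of genes. Between the controls, 3% of genes reached 1.5 and no receptor did. Per kb, Clec4d exceeded Clec4e by 2.17, 2.48, 2.26 and 2.35 times in the 4 libraries, a narrow range beside the spread of each gene.

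No diet difference passed the test in the group, and its size was poorly determined. Log2 fold changes were 0.03 ± 0.27 for Clec4d (adjusted p = 0.959), 0.04 ± 0.22 for Clec4e (0.934) and -0.61 ± 0.53 for Clec4n (0.617), all by the edgeR quasi-likelihood test. Dropping high-fat replicate 2 gave -0.39, -0.35 and -1.39, and dropping high-fat replicate 1 gave 0.36, 0.35 and -0.10. Clec4n alone passed in 1 of those fits (adjusted p = 2.34e-11, high-fat replicate 2 dropped), where the high-fat group is a single library.

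**Figure D4:**
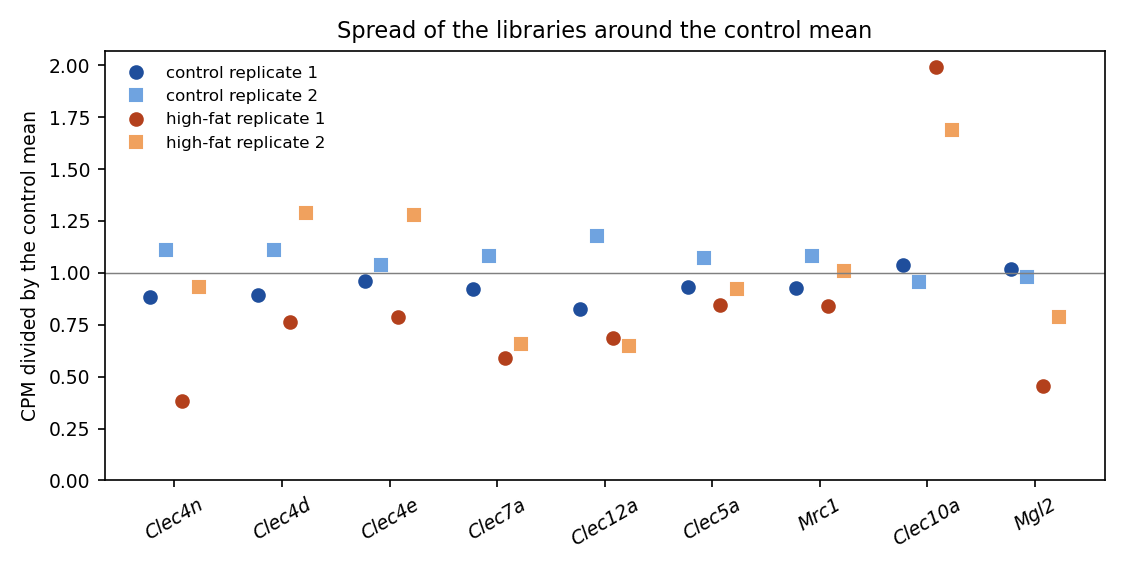
CPM of each receptor gene in each library divided by the mean of the 2 control libraries. High-fat replicate 1 lies at 0.383 for Clec4n, 0.762 for Clec4d and 0.785 for Clec4e and high-fat replicate 2 at 0.934, 1.29 and 1.28, while both high-fat libraries lie between 0.589 and 0.686 for Clec7a and Clec12a.

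The 6 other lectin genes of that run encode further receptors of the same group. Clec4a2 (127 and 171 against 144 and 148 CPM) and Clec4a3 (70.0 and 104 against 89.5 and 74.0 CPM) were the most abundant of them per kb. Clec4a1 had a log2 fold change of -0.22, Clec4b1 -0.39 and Clec4a4 -0.35, and Clec4b2 was too low to test. High-fat replicate 1 was the lowest library for Clec4b1 (9.26 CPM) as for Clec4n, Clec4d and Clec4e, but not for the Clec4a genes.

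**Figure D5:**
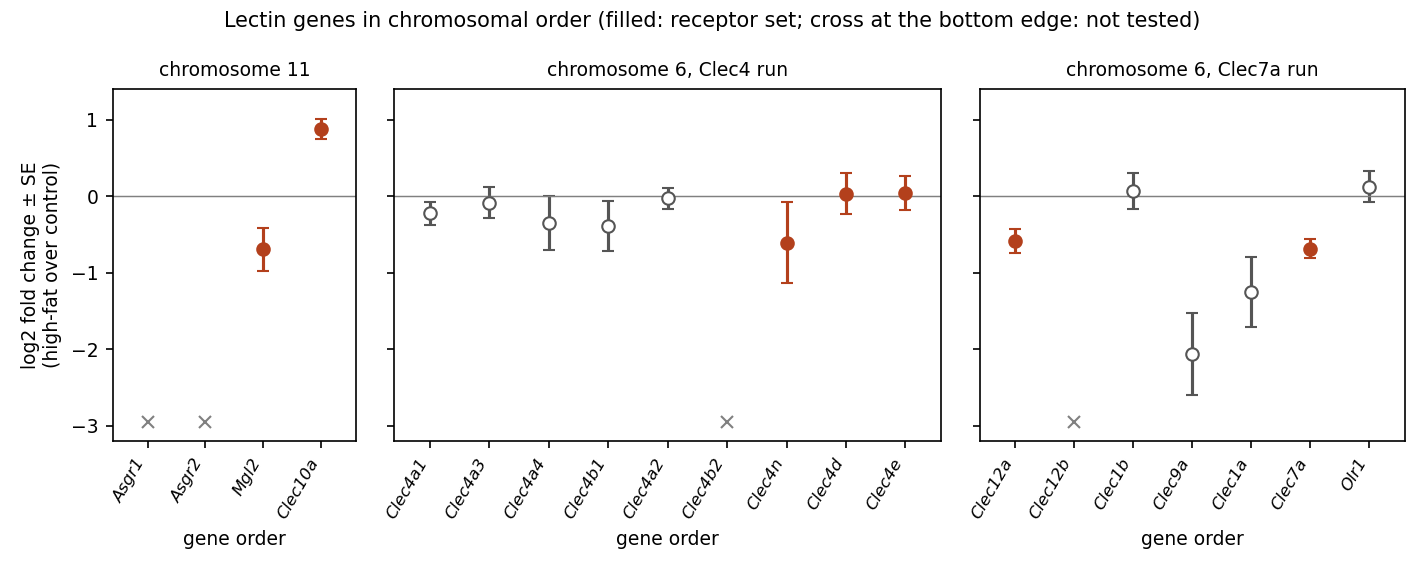
Log2 fold change, high-fat over control, with its standard error, of every lectin gene in the 3 chromosomal runs that hold receptors of the set, in the order of the genes. Filled points are the receptors described here, open points other lectin genes, and crosses at the bottom edge genes with too few counts to test.

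Promoter sequences (250 bases before to 50 after the start, RefSeq, GRCm38.p6) were at hand for 7 of the 10 receptors. They are shown for 2 pairs of genes, each pair within 1 run, whose values went the same way in the high-fat libraries, Clec7a with Clec12a and Clec4d with Clec4e, 5′ to 3′ on the strand of the gene. Capitals mark GAGGAA or its reverse complement TTCCTC, the core bound by PU.1, a factor of the macrophage lineage. The positions are chr6:129472730-129473029 (minus strand) for Clec7a, chr6:129349994-129350293 (plus) for Clec12a, chr6:123261857-123262156 (plus) for Clec4d and chr6:123289822-123290121 (minus) for Clec4e.
Clec7a: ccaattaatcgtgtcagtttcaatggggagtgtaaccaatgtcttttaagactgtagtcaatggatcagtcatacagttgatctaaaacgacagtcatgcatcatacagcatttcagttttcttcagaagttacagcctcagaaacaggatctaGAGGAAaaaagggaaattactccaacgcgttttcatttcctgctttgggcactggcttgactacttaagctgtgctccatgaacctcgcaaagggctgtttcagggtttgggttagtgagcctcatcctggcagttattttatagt
Clec12a: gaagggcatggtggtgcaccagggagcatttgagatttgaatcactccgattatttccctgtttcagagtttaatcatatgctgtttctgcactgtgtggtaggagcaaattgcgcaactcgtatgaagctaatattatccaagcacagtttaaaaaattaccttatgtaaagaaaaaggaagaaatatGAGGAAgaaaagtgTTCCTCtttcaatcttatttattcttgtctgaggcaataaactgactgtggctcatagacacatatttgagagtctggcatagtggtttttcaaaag
Clec4d: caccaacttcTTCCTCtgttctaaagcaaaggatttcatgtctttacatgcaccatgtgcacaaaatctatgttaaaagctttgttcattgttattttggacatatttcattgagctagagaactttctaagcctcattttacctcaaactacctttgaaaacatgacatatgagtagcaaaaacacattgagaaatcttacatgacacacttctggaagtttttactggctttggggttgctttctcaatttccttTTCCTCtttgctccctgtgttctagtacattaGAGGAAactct
Clec4e: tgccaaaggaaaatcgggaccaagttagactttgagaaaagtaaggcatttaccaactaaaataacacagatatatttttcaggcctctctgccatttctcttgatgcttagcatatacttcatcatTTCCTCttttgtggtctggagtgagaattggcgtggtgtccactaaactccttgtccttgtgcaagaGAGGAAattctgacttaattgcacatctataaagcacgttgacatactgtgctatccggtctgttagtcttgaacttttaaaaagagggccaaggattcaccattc
GAGGAA on either strand was found once in Clec7a, 2 times in Clec12a, 3 times in Clec4d and 2 times in Clec4e. All 7 receptors with a promoter entry held it at least 1 time, against 28.3% of 32851 promoter entries of the same length. TGANTCA, the letters of an AP-1 site, was present in Clec12a and absent from the other 3, and occurs in 7.8% of all entries. TTGCNNAA, searched for C/EBP factors, was present in Clec12a and Clec4e (10.8% of all entries), a STAT motif in Clec7a (7.0%), and TATAAA in Clec7a and Clec4e (13.6%). In Clec4e TATAAA is on the gene's strand. In Clec7a it is on the opposite strand, in the last bases shown, which lie after the start. A further Clec7a entry, chr6:129472736-129473035, holds the STAT motif but no TATAAA. All motifs were searched on both strands; a match is a description of the letters and no evidence of binding.

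Mrc1 and Clec5a differed little between the diets. Mrc1 encodes the mannose receptor CD206, an endocytic receptor for mannosylated glycoproteins and a marker of alternative activation, at chromosome 2: 14151041 to 14253650 (mm9, plus strand, 30 exon blocks). It had 277 and 322 CPM in control and 251 and 301 CPM in high-fat libraries, so the diets overlapped. The log2 fold change of -0.12 ± 0.12 did not pass (adjusted p = 0.642, edgeR quasi-likelihood test). Clec5a, a receptor that signals through the adaptor of Tyrobp, lies at chromosome 6: 40524897 to 40535804 (mm9, minus strand, 7 exon blocks). It had 93.2 and 106 CPM in control and 84.1 and 92.0 CPM in high-fat libraries, with the diets barely apart. Its log2 fold change of -0.18 ± 0.10 did not pass (adjusted p = 0.406). Mrc2, at chromosome 11: 105153960 to 105212459 (plus strand, 30 exon blocks), encodes Endo180, a collagen receptor of fibroblasts, and had the few counts given above.

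Shares of the set also separated the diets for some receptors, but shares are not independent, as a lower share of Clec7a raises those of the others. The levels of Clec4d and Clec4e themselves overlapped between the diets. Clec4d held 37.6% and 38.7% of the counts per kb in control and 40.9% and 48.0% in high-fat libraries, and Clec4e 17.4% and 15.6% against 18.1% and 20.5%. Clec10a held 0.72% and 0.55% in control and 1.74% and 1.03% in high-fat libraries. The shares of Clec7a and Mgl2 were lower in both high-fat libraries (Mgl2 0.134% and 0.107% against 0.0757% and 0.0919%). That of Clec4n was lower there too (1.69% and 1.77% against 0.933% and 1.58%). Clec12a (9.01% and 10.7% against 9.55% and 6.31%) and Mrc1 (3.09% and 2.99% against 3.57% and 2.98%) overlapped. The summed level of the 10 genes was 1683 and 2024 CPM per kb in control and 1322 and 1897 CPM per kb in high-fat libraries and overlapped too.

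No gene of the receptors' signalling pathway passed the edgeR test. Of 28 signalling genes 0 passed by edgeR (0.612% of all genes) and 2 by DESeq2 (2.74%). An unadjusted p under 0.05 was found for 5 of them, a share near the 17% of all genes, and 20 lay below 0 (50.8% of all genes), with a median of -0.12. Tyrobp, the chain used by Clec5a, had 1173 and 1306 CPM in control and 927 and 892 CPM in high-fat libraries (log2 fold change -0.45 ± 0.11, adjusted p = 0.112). The smallest p of the list was that of Cbl, a ubiquitin ligase that limits SYK (-0.39, adjusted p = 0.094). Tyrobp, Ptpn6, the phosphatase recruited by inhibitory motifs (-0.33, adjusted p = 0.166), and Relb, an NF-kB subunit (-0.40, adjusted p = 0.237), followed. Fcer1g, the chain used by the Dectin-2 group, had 547 and 611 against 591 and 660 CPM (0.11 ± 0.11), and Syk 406 and 337 against 389 and 368 CPM (0.03 ± 0.12). Card9 had 8.07 and 6.36 against 6.68 and 4.51 CPM (-0.37 ± 0.22); Fcer1g, Syk and Card9 were picked for their role after values were seen.

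Among 15 genes that such receptors are known to induce, 11 were tested and 1 rose, beside 0.322% of all genes. Cxcl1, a neutrophil chemoattractant, went from 15.8 and 16.7 to 28.9 and 36.8 CPM (log2 fold change 1.01 ± 0.14, adjusted p = 0.0266, edgeR quasi-likelihood test). Il6 had 0.124 and 0.129 against 0.452 and 0.926 CPM (2.41, adjusted p = 0.0898) and passed the count filter through the high-fat libraries. Ptgs2, the inducible prostaglandin synthase, had 6.61 and 5.64 against 8.83 and 11.6 CPM (0.73, adjusted p = 0.109), and Il10 a log2 fold change of 1.02 (adjusted p = 0.248). The list's median was 0.27, and 9 of the 11, Il6 among them, lay above 0; this count is no support, since a gene could pass the filter through its high group. Its summed level was 503 and 480 CPM in control and 496 and 670 CPM in high-fat libraries, so the diets overlapped and high-fat replicate 2 stood highest.

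Of 59 other C-type lectin genes 36 were tested and 1 fell, beside 0.29% of all genes. It was Cd209a, a relative of the dendritic cell receptor DC-SIGN (log2 fold change -2.34 ± 0.28, adjusted p = 0.0161, edgeR quasi-likelihood test). The median of the 36 was -0.17, and for 13 the high-fat libraries lay under the controls, beside 24.9% of all genes. Cd72, an inhibitory receptor of B cells also made by macrophages, had -0.69 (adjusted p = 0.0742; its exons overlap a gene on the opposite strand), and Klrb1b -1.33 (adjusted p = 0.139). No exon of the 10 receptors overlaps another gene of the deposited models.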

How the data were processed

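The authors deposited raw read counts per gene, 1 table per library, and the gene models behind them. TopHat2 2.0.10, Cufflinks 2.1.1, HTSeq and the mm9 build are named without role or order, per the submitters' processing notes; the sources used here give neither strand use nor read length. Exon positions come from the deposited gene models and are mm9 coordinates counted from 1. The 5 summary lines of each table were left out; multiply aligned reads took 37.5% to 48.5% of each table's sum. Replicates differed far beyond sampling noise (chi-square per degree of freedom 33.8 and 34.9), so each library counted once.

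Genes were kept by filterByExpr (minimum count 10, minimum total 15). The test was edgeR 4.0.16's robust quasi-likelihood test with TMM and diet as the only term (2 residual degrees of freedom), with Benjamini-Hochberg adjustment across the 12747 kept genes. A standard error is the log2 fold change's size over the square root of F. DESeq2 1.42.0 and limma-voom (limma 3.58.1) were alternatives; coding sequences were aligned with MAFFT 7.526. The edgeR fit was tested on simulated data. The members and the 14 gene lists were chosen with earlier results of these data known. Named genes are the 10 receptors, genes past the threshold in each other list, the 4 with the smallest p there (2 per marker list), and 3 genes most like Clec10a. The other marker lists gave medians of -0.23 (large peritoneal macrophages, with Alox15 lower), -0.70 (eosinophils), 0.11 (mast cells and basophils), 0.71 (B cells, with Igj higher), 0.64 (T and NK cells) and 0.18 (endothelium).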

Additional observations from a re-analysis of the deposited data

How the results depend on the processing

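Of 118 alternative values of the 9 receptors' log2 fold changes, 94 kept their direction and side of the threshold, 3 lost the threshold (Clec10a, given above), 12 gained it and 9 changed sign. Clec4d changed sign by limma-voom (-0.0035), with a replicate block (-0.0066) and with the GC content and length trend removed (-0.13), and ran from -0.39 to 0.36 with 1 library left out, negative at -0.12 when control replicate 1 was dropped. Clec4e had -0.076 with that trend removed and ran from -0.35 to 0.35, with -0.023 when control replicate 1 was dropped. Mrc1 ran from -0.25 to 0.010, the latter when high-fat replicate 1 was dropped. The cause was not tested.

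Receptors called numbered 1 in the reported fit, 2 with library totals only, 2 with no filter, 2 with a replicate block, 2 with the GC content and length trend removed, 3 by DESeq2, 0 by limma-voom and 0 to 5 when 1 library was left out (0 when either control library was dropped, 3 and 5 when high-fat replicate 1 or 2 was). All genes called numbered 78, against 356 by DESeq2, 28 by limma-voom, 522 with no filter, 46 with a CPM filter and 15 to 831 with 1 library left out. Signalling genes called were 0, against 2 by DESeq2 and 2 with no filter. Other lectins called were 1, against 4 by DESeq2, 4 with no filter, 2 with a replicate block and 0 to 7 with 1 library left out. Induced genes called were 1, against 0 by limma-voom, 3 with no filter and 0 to 4 with 1 library left out. A lone library left in a diet is assumed to vary like the others. The GC content and length check was chosen after seeing the data and covered 11766 genes.

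Libraries that share a replicate number deviated together only weakly (r = 0.089 across 12747 genes for both pairs, which 2 libraries per diet make equal), so the numbers were not taken as pairs. With the replicate block 113 genes were called. Without division by exon length Clec4d held 24.5% and 25.5% of the set in the control libraries and Clec7a, at 32.1% and 31.5%, was the largest there. Scaling moved the median of all genes by under 0.1 on the log2 scale. Depth limits Mgl2, with 72 to 141 counts, and Mrc2 most.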
